A study of Mus musculus with 10 samples.

Results

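The genes described here encode the entry steps of branched-chain amino acid (BCAA) breakdown: the mitochondrial transaminase Bcat2, the subunits Bckdha, Bckdhb, Dbt and Dld of the branched-chain ketoacid dehydrogenase (BCKDH), its kinase Bckdk and its phosphatase Ppm1k. They were chosen by symbol, and all 7 were found among the 11790 genes of the table and among the 9987 genes tested. Heart RNA of 10 mice, aged 10 to 11 weeks and killed in the randomly fed state, was sequenced. In 5 mice, A-PDK1KO, 3-phosphoinositide-dependent kinase 1 (PDK1, gene Pdpk1) was deleted in adipocytes only, and 5 PDK1 flox/flox mice were the controls. The sources used here do not give the promoter that drives the deletion, the strain or the sex; each sample is 1 heart. The controls carry the floxed gene without the adipocyte deletion. Levels are FPKM, fragments scaled to exon length and to all counted reads. Levels of different genes can be set against each other only for the exon length used.

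The series asks how the heart handles BCAA in this mouse, a model of heart disease in diabetes. Leucine, isoleucine and valine first lose their amino group to BCAT2 in the mitochondrion. The resulting ketoacids are then decarboxylated irreversibly by BCKDH, the committed step of the pathway. In that complex BCKDHA and BCKDHB form the E1 decarboxylase, DBT is the E2 core that carries lipoate, and DLD is the E3 flavoprotein that the pyruvate and oxoglutarate dehydrogenases also use. BCKDK switches the complex off by phosphorylating the E1 alpha subunit, and PPM1K removes the phosphate. Phosphorylation itself is not measured by RNA levels.

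None of the 7 core genes passed the test between genotypes. Bckdha came nearest, at 169 ± 14.6 FPKM in A-PDK1KO hearts and 143 ± 16.1 FPKM in control hearts (mean ± SD, n = 5 each), and Dld was the 1 gene with a lower mean in A-PDK1KO hearts. By limma on log2(FPKM + 1), with Benjamini-Hochberg adjustment over all tested genes, 0 of 7 had an adjusted p under 0.05, against 2.08% of all tested genes. By direction, 0 of 7 were called higher and 0 of 7 lower in A-PDK1KO hearts, against 1.21% and 0.871% of all tested genes. At an unadjusted p under 0.05 there was 1 of 7, Bckdha, against 15.6% of all tested genes. The count was also 0 with limma voom on the recovered reads. A log2 difference above 0 was found for 6 of 7, against 54.6% of all tested genes, and the median log2 difference was 0.13 over the 7 and 0.02 over all tested genes. These shares of all tested genes come from the same libraries and set the scale for the counts.

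The libraries held 9249256 to 11384423 counted reads, recovered from the size of 1 read in the FPKM values. Mitochondrially encoded transcripts took 34.3% to 41.5% of them in A-PDK1KO hearts and 32.7% to 40.4% in control hearts. Pdpk1 was at 2.73, 4.04, 3.64, 3.70 and 3.17 FPKM in A-PDK1KO replicates 1 to 5 and at 3.77, 3.77, 3.54, 3.54 and 3.14 FPKM in control replicates 1 to 5; heart RNA does not check a deletion in adipocytes. The hearts expressed ventricular cardiomyocyte markers strongly (summed level of 8 markers 21024 to 23244 FPKM in A-PDK1KO hearts and 22178 to 24738 FPKM in control hearts). Of these 8, 1 had a log2 difference above 0, against 54.6% of all tested genes, and the median was -0.10. By limma 3 of the 8 had an unadjusted p under 0.05, against 15.6% of all tested genes, and 0 were called. The adipocyte gene Cfd was at 0 to 1.36 FPKM in A-PDK1KO hearts and 0 to 1.11 FPKM in control hearts. Adig, the 1 adipocyte marker that could be tested, was at 2.70, 5.19, 3.24, 2.60 and 2.98 FPKM across A-PDK1KO replicates 1 to 5 and at 1.87, 1.83, 2.89, 1.02 and 1.73 FPKM across control replicates 1 to 5 (log2 difference 0.60 ± 0.18 SE, unadjusted p = 0.00499, limma adjusted p = 0.114). Only control replicate 3 reached into the A-PDK1KO range, and the part of fat cells in the results was not tested. Adipoq, Plin1, Retn, Lep, Car3 and Ucp1 have no row in the authors' table and could not be examined. Every gene in that table reached at least 1.00 FPKM in some heart. None of the tested markers of endothelium, fibroblasts, macrophages, smooth muscle or blood was called either; the summed haemoglobin and Alas2 level was 68.6 to 228 FPKM in A-PDK1KO hearts and 27.9 to 1391 FPKM in control hearts, and the part of these cells in the results was not tested. Atrial tissue was unevenly present: Myl7, an atrial light chain gene, reached 35.0 FPKM in A-PDK1KO replicate 3, 47.6 FPKM in A-PDK1KO replicate 5, 85.9 FPKM in control replicate 2 and 71.3 FPKM in control replicate 5. The remaining 6 hearts had less than 1 FPKM of it. Of 6 atrial markers 0 had a log2 difference above 0, 1 had an unadjusted p under 0.05 and 0 were called. In bulk tissue, fewer cells of a type and less RNA per cell cannot be told apart. Over all genes 208 were called, 121 higher and 87 lower in A-PDK1KO hearts, and 220 higher and 94 lower once mitochondrial and haemoglobin reads were left out of the scaling.

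Windows of 250 bases before the annotated start were matched by symbol for 6 of the 7 genes in RefSeq's GRCm38.p6 promoter table, where a gene may have more than 1 start. The Bckdha window precedes the RefSeq start, which lies inside the GENCODE span of the gene, so 220 of its 250 bases fall within that span. Those of the E1 pair and of the kinase and phosphatase pair are shown, because the results turn on these opposed or partnered genes. Sequences run 5′ to 3′ on the strand of the gene, and capitals mark the letters GGGCGG (GC box) or CCAAT, or their reverse complements.
Bckdha, chr7:25658762-25659011, minus strand: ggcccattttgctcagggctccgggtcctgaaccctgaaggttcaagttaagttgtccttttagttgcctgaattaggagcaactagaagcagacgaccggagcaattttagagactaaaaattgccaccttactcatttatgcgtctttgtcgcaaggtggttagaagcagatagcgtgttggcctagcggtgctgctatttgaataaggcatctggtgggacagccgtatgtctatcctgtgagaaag
Bckdhb, chr9:83924887-83925136, plus strand: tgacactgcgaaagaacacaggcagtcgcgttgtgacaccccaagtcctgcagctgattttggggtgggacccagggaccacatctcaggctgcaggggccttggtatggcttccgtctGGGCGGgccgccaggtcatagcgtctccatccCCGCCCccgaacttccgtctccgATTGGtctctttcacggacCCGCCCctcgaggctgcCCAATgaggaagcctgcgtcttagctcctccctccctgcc
Bckdk, chr7:127903823-127904072, plus strand: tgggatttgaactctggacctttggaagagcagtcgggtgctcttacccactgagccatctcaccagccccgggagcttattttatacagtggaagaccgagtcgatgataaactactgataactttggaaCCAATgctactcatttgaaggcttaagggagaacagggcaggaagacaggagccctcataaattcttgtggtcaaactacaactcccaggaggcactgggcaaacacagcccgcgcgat
Ppm1k, chr6:57535488-57535737, minus strand: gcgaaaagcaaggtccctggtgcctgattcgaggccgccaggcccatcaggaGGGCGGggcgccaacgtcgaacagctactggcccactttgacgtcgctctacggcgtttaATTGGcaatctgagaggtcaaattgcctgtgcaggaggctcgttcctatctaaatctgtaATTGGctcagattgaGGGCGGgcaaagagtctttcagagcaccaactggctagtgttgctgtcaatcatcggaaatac
The Bckdhb window shown held 3 matches to GGGCGG and 2 to CCAAT, that of Ppm1k 2 and 2, and that of Bckdk 1 to CCAAT, while the Bckdha window held neither. A second Bckdhb start, with the window chr9:83948531-83948780, had no match to either and was 36.4% G or C. Of 32851 windows of the same length, 32.7% had at least 1 GGGCGG and 33.8% at least 1 CCAAT on either strand. The Bckdhb window shown was 63.2% G or C, that of Ppm1k 54.4% and that of Bckdha 47.6%, against a median of 52.4% over all windows. The FoxO core GTAAACA, found in 3.17% of windows, the E-box CACGTG (6.02%) and the cyclic AMP element TGACGTCA (1.55%) matched in none of the 4 windows shown. The nuclear receptor motif AGGTCA, in 14.0% of windows, matched once each in the windows of Bckdhb and Ppm1k. The TATA box TATAAA (12.4%) had 1 match in the Bckdk window, and the KLF core CCACCC (28.1%) had 1 in the Bckdhb window shown. The search covered both strands and letters only.

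Bcat2 (ENSMUSG00000030826, mm10 chromosome 7, 45570153 to 45589711, plus strand) encodes the transaminase that opens the pathway in muscle. It was at 19.8, 24.4, 19.5, 22.1 and 19.7 FPKM in A-PDK1KO replicates 1 to 5 and at 17.8, 17.2, 20.1, 21.8 and 18.8 FPKM in control replicates 1 to 5. The groups overlapped: A-PDK1KO replicates 2 and 4 lay above every control heart, and 3 control hearts lay below every A-PDK1KO heart. The log2 difference was 0.13 ± 0.08 SE (95% interval -0.05 to 0.31, limma adjusted p = 0.486). Exons of the antisense gene 0610005C13Rik overlap 15.9% of its exon bases, and with the strand setting not given in the sources used here reads there could be split between the genes or dropped.

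Bckdha (ENSMUSG00000060376, chromosome 7, 25629946 to 25658981, minus strand) encodes the E1 alpha subunit, the target of the kinase and phosphatase. It was at 157, 184, 163, 186 and 156 FPKM in A-PDK1KO replicates 1 to 5 and at 140, 136, 148, 166 and 123 FPKM in control replicates 1 to 5. Of the control hearts 4 lay below every A-PDK1KO heart, and control replicate 4 lay among them. The ratio of the means was 1.19, and the log2 difference was 0.25 ± 0.08 SE (95% interval 0.06 to 0.43, limma adjusted p = 0.173). By p it lay among the lowest 6.86% of the 9987 genes. With the length of all exons it was also the most abundant core gene and ranked 252nd by mean level, with 2455 to 4011 reads per heart.

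Its reads lie in a shared locus. Exons of B3gnt8, a glycosyltransferase gene on the plus strand, cover 1171 of the 1899 exon bases of Bckdha, or 61.7%. B3gnt8 had 125 to 217 reads per heart, at 2.64 ± 0.511 FPKM in A-PDK1KO hearts and 2.35 ± 0.270 FPKM in control hearts. With those reads added to Bckdha, an alternative chosen after seeing the data, its log2 difference by voom was 0.25 (adjusted p = 0.152), against 0.25 (0.142) without them. Reads that the counting dropped as ambiguous cannot be restored from the table, so the absolute level of Bckdha is uncertain.

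Bckdhb (ENSMUSG00000032263, chromosome 9, 83925145 to 84124240, plus strand) encodes the E1 beta subunit, which pairs with E1 alpha. It was at 31.5, 32.2, 35.3, 29.8 and 30.9 FPKM in A-PDK1KO replicates 1 to 5 and at 25.5, 32.8, 33.1, 35.6 and 29.9 FPKM in control replicates 1 to 5. The A-PDK1KO hearts lay inside the range of the controls, whose lowest heart was replicate 1. The means differed by a log2 difference of 0.03 ± 0.09 SE (95% interval -0.16 to 0.22, limma adjusted p = 0.916).

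Dbt (ENSMUSG00000000340, chromosome 3, 116513070 to 116549981, plus strand) encodes the E2 transacylase around which the complex is built. It was at 17.2, 21.6, 15.4, 17.6 and 14.9 FPKM in A-PDK1KO replicates 1 to 5 and at 14.0, 15.1, 14.7, 20.1 and 14.7 FPKM in control replicates 1 to 5. A-PDK1KO replicate 2 and control replicate 4 stood above the other hearts of their groups, and the ranges overlapped. On the log2 scale the difference was 0.13 ± 0.11 SE (95% interval -0.11 to 0.38, limma adjusted p = 0.628).

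Dld (ENSMUSG00000020664, chromosome 12, 31331277 to 31351453, minus strand) encodes the E3 dehydrogenase, shared with other ketoacid dehydrogenases and the glycine cleavage system. It was at 90.8, 107, 93.1, 102 and 91.8 FPKM in A-PDK1KO replicates 1 to 5 and at 99.7, 108, 103, 103 and 98.7 FPKM in control replicates 1 to 5. A-PDK1KO replicates 1, 3 and 5 lay below every control heart, while replicates 2 and 4 lay among the controls. On the log2 scale the difference was -0.08 ± 0.06 SE (95% interval -0.22 to 0.05, limma adjusted p = 0.557).

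Bckdk (ENSMUSG00000030802, chromosome 7, 127904082 to 127910221, plus strand) encodes the kinase that holds the complex inactive. It was at 21.9, 24.8, 22.6, 24.7 and 23.7 FPKM in A-PDK1KO replicates 1 to 5 and at 23.4, 23.0, 23.2, 24.8 and 20.7 FPKM in control replicates 1 to 5. The groups covered nearly the same range, and the coefficient of variation was 5.42% in A-PDK1KO hearts and 6.45% in control hearts. The log2 difference was 0.03 ± 0.06 SE (95% interval -0.11 to 0.17, limma adjusted p = 0.874).

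Ppm1k (ENSMUSG00000037826, chromosome 6, 57506502 to 57535468, minus strand) encodes the matrix phosphatase that reactivates the complex. It was at 8.43, 14.8, 11.2, 12.6 and 12.1 FPKM in A-PDK1KO replicates 1 to 5 and at 11.6, 9.40, 8.68, 12.2 and 9.87 FPKM in control replicates 1 to 5. Replicates 2 and 4 of the A-PDK1KO hearts lay above every control heart, and replicate 1 lay below every control heart. Between genotypes the log2 difference was 0.17 ± 0.13 SE (95% interval -0.12 to 0.45, limma adjusted p = 0.600). It varied most among the core genes in A-PDK1KO hearts, with a coefficient of variation of 19.5% there and of 14.5% in control hearts.

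**Figure D1:**
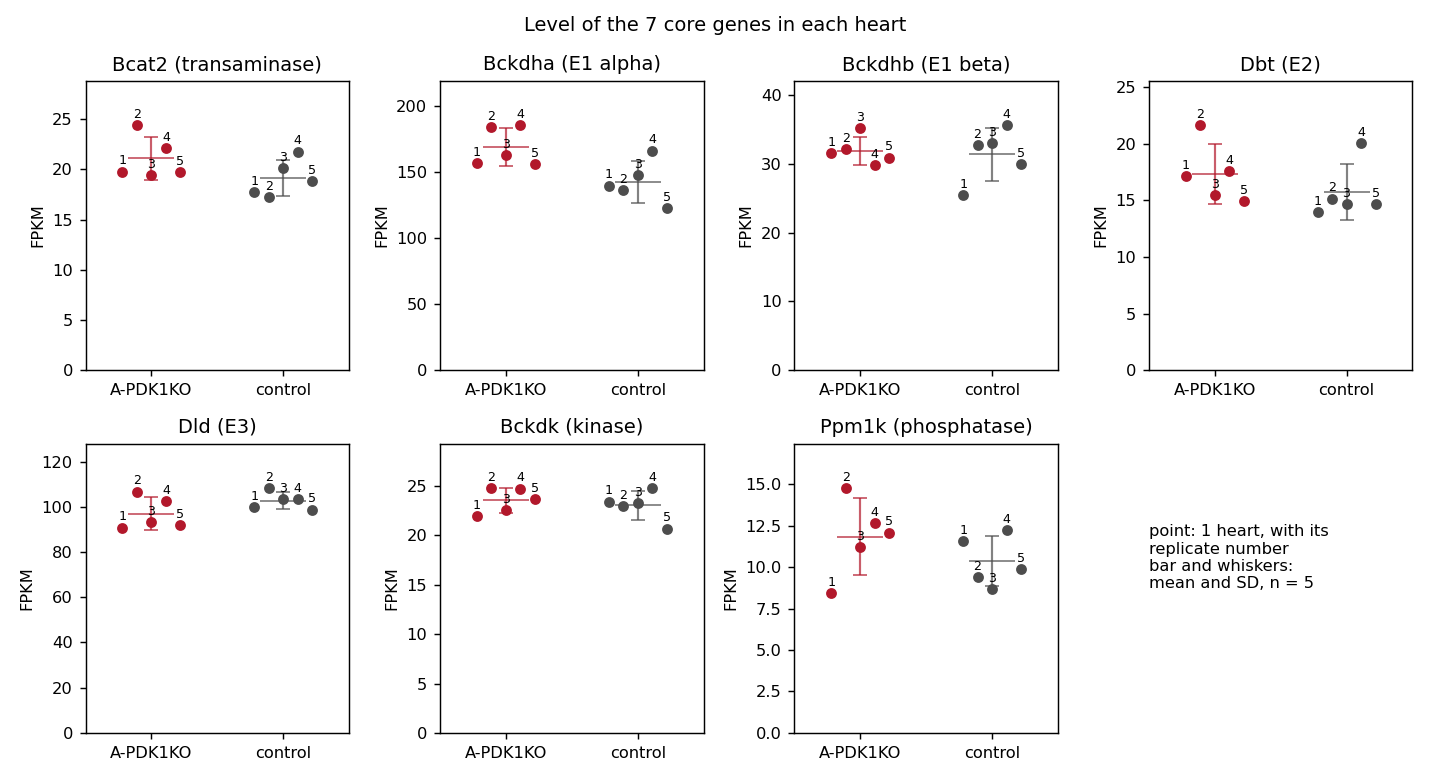
Level of each core gene in FPKM (vertical axis, from 0) in the 5 A-PDK1KO and 5 control hearts. Points are single hearts with their replicate numbers, and bars with whiskers are means and SD. The groups overlap for all 7 genes, and for Bckdha 4 of the 5 control hearts lie below every A-PDK1KO heart.

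The spread between hearts was wider than counting error alone. From the reads per heart it came to 1.58% to 2.02% of the value for Bckdha, 1.53% to 1.77% for Dld, 3.77% to 4.85% for Bckdhb and 3.39% to 4.53% for Ppm1k. The observed coefficients of variation were larger for every core gene in both genotypes, and the smallest were 3.70% for Dld in control hearts and 5.42% for Bckdk in A-PDK1KO hearts. Such errors cover counting only. With groups of 5 the 95% intervals of the log2 differences reached a median of 0.18 to either side over the core genes. Smaller differences than that were mostly not detectable. These intervals are not adjusted for the number of genes tested, and Bckdha, with a log2 difference of 0.25, was not called either.

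**Figure D2:**
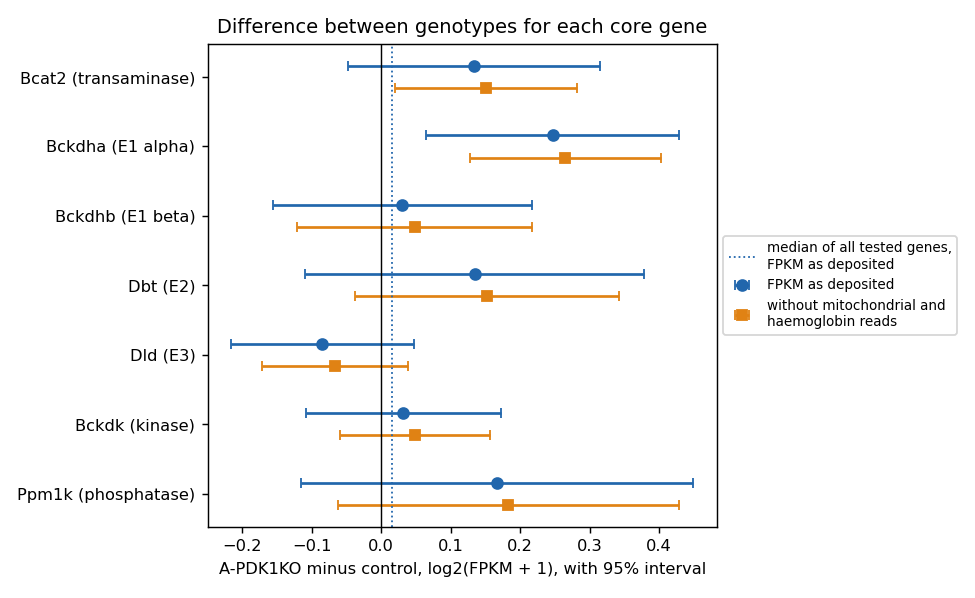
Difference between A-PDK1KO and control hearts on the log2(FPKM + 1) scale (horizontal axis) with its 95% interval from limma, for FPKM as deposited and after rescaling without mitochondrial and haemoglobin reads. As deposited, the interval of Bckdha is the only one of the 7 that leaves out 0; after rescaling those of Bckdha and Bcat2 do.

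The subunits were expressed at unequal levels per length. With the length of all exons, the order in all 10 hearts was Bckdha, Dld, Bckdhb, Bckdk, Bcat2, Dbt and Ppm1k. Mean levels over the hearts were 156 FPKM for Bckdha and 99.8 FPKM for Dld, above 31.7 FPKM for Bckdhb, 23.3 FPKM for Bckdk and 20.1 FPKM for Bcat2. Dbt averaged 16.5 FPKM and Ppm1k 11.1 FPKM. The ranges over hearts did not overlap down to Bckdk. Those of Bckdk and Bcat2, of Bcat2 and Dbt, and of Dbt and Ppm1k did, although each heart kept the order. That order depends on the exon length used. With all exons, mean Bcat2 to Bckdk was 0.895 in A-PDK1KO hearts and 0.833 in control hearts. With the length of the principal transcript it was 1.82 and 1.69. Mean Bckdha to Dld went from 1.74 to 1.203 in A-PDK1KO hearts and from 1.39 to 0.959 in control hearts. All 7 were in the upper part of the tested genes, with Ppm1k ranked 2503rd by mean level.

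Ratios within a heart do not depend on how its library was scaled. A total of 8 were compared between genotypes by an exact two-sided permutation test over the 252 splits of 5 against 5, and none had a p under 0.05 after adjustment over the 8. The smallest p that the splits allow is 0.00794, so 1 ratio alone could not have passed that adjustment. In a second step, chosen after seeing the data, all 21 pairs of core genes were compared, with 4 at an unadjusted p under 0.05 and 0 after adjustment over the 21. There too 1 pair alone could not have passed, even at the smallest p.

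The E1 alpha to E1 beta ratio, Bckdha to Bckdhb, was 4.96, 5.71, 4.62, 6.23 and 5.05 in A-PDK1KO replicates 1 to 5 and 5.48, 4.15, 4.47, 4.66 and 4.10 in control replicates 1 to 5. Control replicate 1, the heart with the lowest Bckdhb, lay among the A-PDK1KO hearts. The log2 difference of the ratio was 0.22 ± 0.11 SE (exact permutation p = 0.0794, adjusted p = 0.175). Transcripts of these partners stood several-fold apart in both genotypes, with mean ratios of 5.32 ± 0.647 in A-PDK1KO hearts and 4.57 ± 0.557 in control hearts. These sizes depend on the exon length used: with the length of the principal transcript in place of all exons they were 4.35 in A-PDK1KO hearts and 3.74 in control hearts. Because the absolute level of Bckdha is uncertain in the locus shared with B3gnt8, so are the sizes of all ratios with it.

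Against the E2 core, Bckdha to Dbt was 9.84 ± 0.966 in A-PDK1KO hearts and 9.14 ± 0.857 in control hearts (log2 difference 0.11 ± 0.09 SE, exact permutation p = 0.270, adjusted p = 0.360). Bckdhb to Dbt was 1.88 ± 0.313 in A-PDK1KO hearts and 2.01 ± 0.207 in control hearts (log2 difference -0.11 ± 0.13 SE, exact p = 0.421, adjusted p = 0.481). For Dld to Dbt, E3 to E2, the values were 5.29, 4.93, 6.03, 5.82 and 6.16 in A-PDK1KO replicates 1 to 5 and 7.13, 7.16, 7.04, 5.15 and 6.73 in control replicates 1 to 5. Control replicate 4 lay among the A-PDK1KO hearts and the other 4 control hearts lay above all of them (log2 difference -0.23 ± 0.11 SE, exact permutation p = 0.0873, adjusted p = 0.175).

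The kinase to phosphatase ratio, Bckdk to Ppm1k, was 2.60, 1.68, 2.01, 1.95 and 1.96 in A-PDK1KO replicates 1 to 5 and 2.02, 2.44, 2.68, 2.03 and 2.095 in control replicates 1 to 5. Of the A-PDK1KO hearts 4 lay below every control heart, and replicate 1, whose Ppm1k was the lowest of the 10 hearts, lay near the top of the control range. The mean was 2.04 ± 0.339 in A-PDK1KO hearts and 2.25 ± 0.294 in control hearts (log2 difference -0.15 ± 0.13 SE, exact permutation p = 0.238, adjusted p = 0.360). Without A-PDK1KO replicate 1 the log2 difference was -0.24 (exact permutation p = 0.0317, adjusted p = 0.127). That adjusted p was the lowest of the 10 tests that left out 1 heart. Without A-PDK1KO replicate 2 the log2 difference was -0.08 (exact permutation p = 0.548, adjusted p = 0.626), and without control replicate 3 it was -0.08 (exact p = 0.476, adjusted p = 0.544). The difference was within the spread between hearts.

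The kinase transcript was also set against that of its substrate subunit. Bckdk to Bckdha was 0.140, 0.135, 0.139, 0.133 and 0.152 in A-PDK1KO replicates 1 to 5 and 0.167, 0.169, 0.157, 0.149 and 0.169 in control replicates 1 to 5. Only A-PDK1KO replicate 5 and control replicate 4 crossed (log2 difference -0.22 ± 0.05 SE, exact permutation p = 0.0159, adjusted p = 0.127). Ppm1k to Bckdha was 0.0698 ± 0.0103 in A-PDK1KO hearts and 0.0730 ± 0.00967 in control hearts (log2 difference -0.07 ± 0.13 SE, exact p = 0.603, adjusted p = 0.603). Bcat2 to Bckdha was 0.125 ± 0.00559 in A-PDK1KO hearts and 0.135 ± 0.0111 in control hearts (log2 difference -0.11 ± 0.06 SE, exact p = 0.0873, adjusted p = 0.175).

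Among the 21 pairs, Bckdha to Dld was the 1 whose groups did not overlap, or 4.76% of the pairs. It was 1.72, 1.72, 1.75, 1.81 and 1.70 in A-PDK1KO replicates 1 to 5 and 1.40, 1.26, 1.43, 1.61 and 1.24 in control replicates 1 to 5. The A-PDK1KO hearts lay close together, with an SD of 0.0425, against 0.150 in control hearts. The sizes of this ratio depend on the exon length used, but the comparison between genotypes does not. The log2 difference was 0.33 ± 0.07 SE (exact permutation p = 0.00794, the smallest possible; adjusted over the 21 pairs p = 0.111). This pair was singled out after its values were seen. The means of its genes differed in opposite directions, neither of them past the test, and a separated ratio to Bckdha was common: 24.8% of the 4599 other genes of at least 5 FPKM gave one, as did 8.09% for ratios to Dld.

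**Figure D3:**
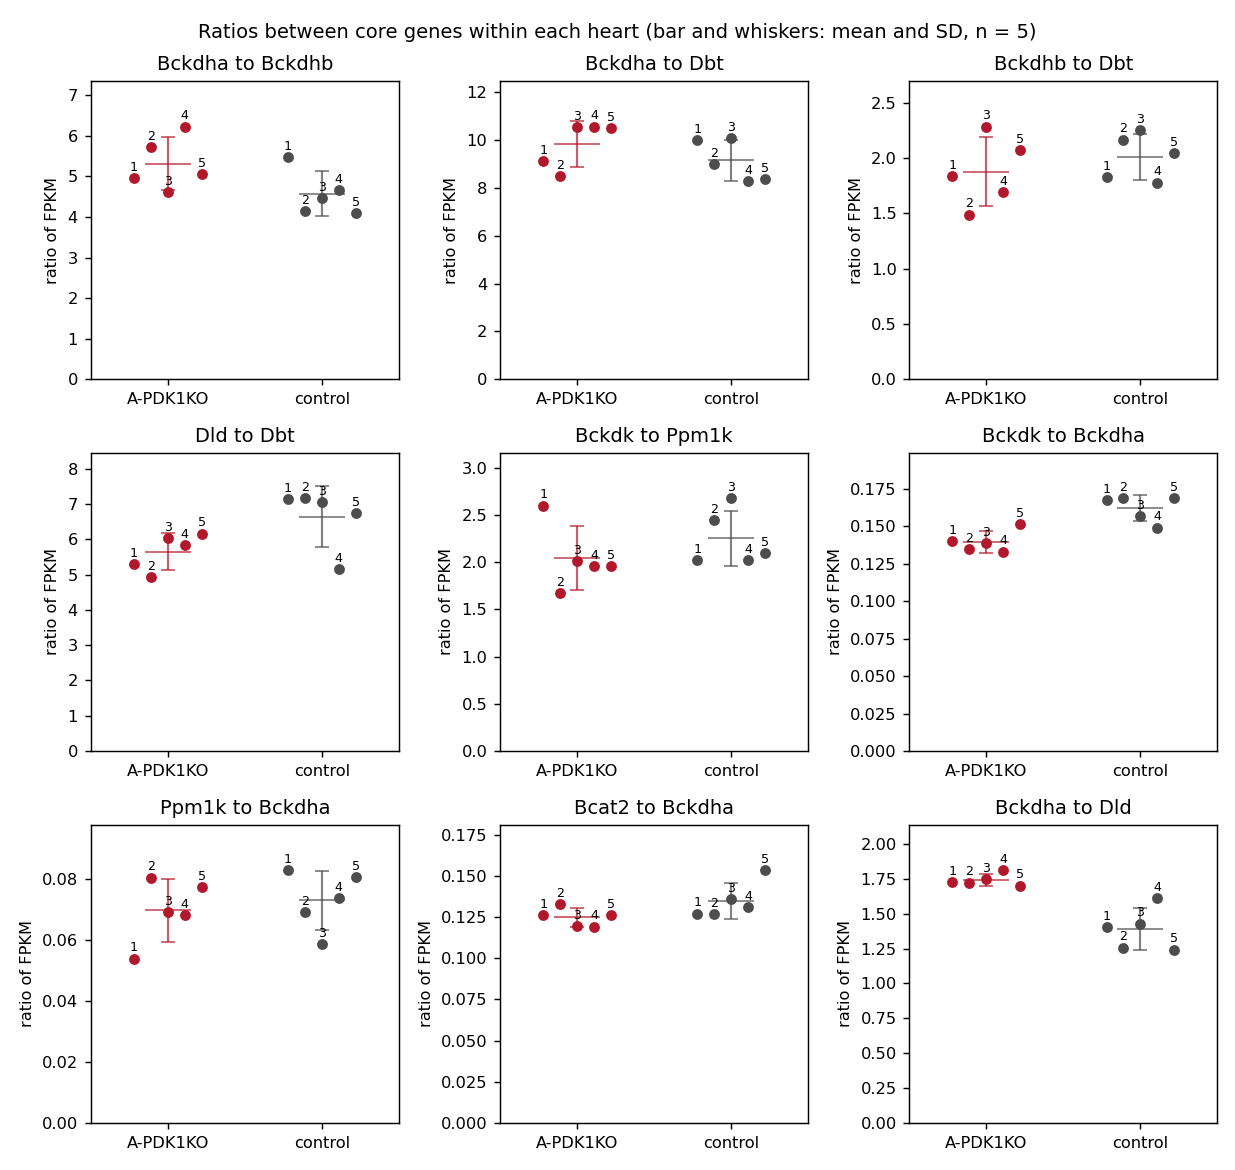
Ratio of FPKM between core genes within each heart (vertical axes, from 0) for the 8 ratios tested and for Bckdha to Dld, A-PDK1KO hearts at left and control hearts at right. Points are single hearts with replicate numbers, and bars with whiskers are means and SD. Bckdha to Dld is the pair without overlap, at 1.70 to 1.81 in A-PDK1KO hearts and 1.24 to 1.61 in control hearts.

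The level of Bckdha, like that of the other core genes, tended to be lower where mitochondrially encoded reads took a larger share. These reads enter the denominator of every FPKM, so part of a negative correlation is built in. The hearts with the lowest shares were control replicate 4 (32.7%), A-PDK1KO replicate 2 (34.3%) and A-PDK1KO replicate 4 (36.1%), and these had the 3 highest levels of Bckdha. Over the 10 hearts, with each genotype's mean removed, the share and log2 Bckdha had Pearson's r = -0.84 (exact permutation within genotypes, p = 0.0110, adjusted over the 7 core genes p = 0.0258) and Spearman's rho = -0.67 (p = 0.0525, adjusted p = 0.118). Without the 2 hearts of most extreme share r was -0.65. The core genes other than Bckdha had r between -0.86 for Dbt and -0.42 for Bckdhb. With that denominator, these p-values do not test a link particular to Bckdha, and r over all tested genes is not given here.

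Leaving mitochondrial and haemoglobin reads out of the scaling put Bckdha past the threshold. It was then at 166, 174, 169, 180 and 159 FPKM in A-PDK1KO replicates 1 to 5 and at 146, 135, 147, 153 and 125 FPKM in control replicates 1 to 5. No control heart reached the lowest A-PDK1KO heart. The log2 difference was 0.27 ± 0.06 SE (95% interval 0.13 to 0.40, limma adjusted p = 0.0430), and 1 of 7 core genes was called, against 3.14% of all tested genes on that scale. When each heart was left out in turn the log2 difference stayed at 0.22 to 0.30, but the call was lost 9 of 10 times: it held without control replicate 4 (adjusted p = 0.0366), and in the others the adjusted p was 0.0644 to 0.0946, the highest without control replicate 2.

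Bcat2 was also separated on that scale, at 20.13 to 23.06 FPKM in A-PDK1KO hearts and 17.11 to 20.06 FPKM in control hearts, with an adjusted p of 0.200 by limma. So 2 of 7 core genes did not overlap between groups after rescaling, against 5.89% of all tested genes, and 0 of 7 as deposited, against 4.96%. With the mitochondrial share as a covariate, chosen after seeing the data, Bckdha had a log2 difference of 0.28 (limma adjusted p = 0.0268), and 1 of 7 was called, against 3.93% of all tested genes. Under the other settings with all 10 hearts Bckdha was not called, with log2 differences of 0.22 to 0.28. With atrial tissue as a covariate it was 0.24 (adjusted p = 0.128), and in the 6 hearts with Myl7 under 10 FPKM it was 0.21 (adjusted p = 0.675).

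**Figure D4:**
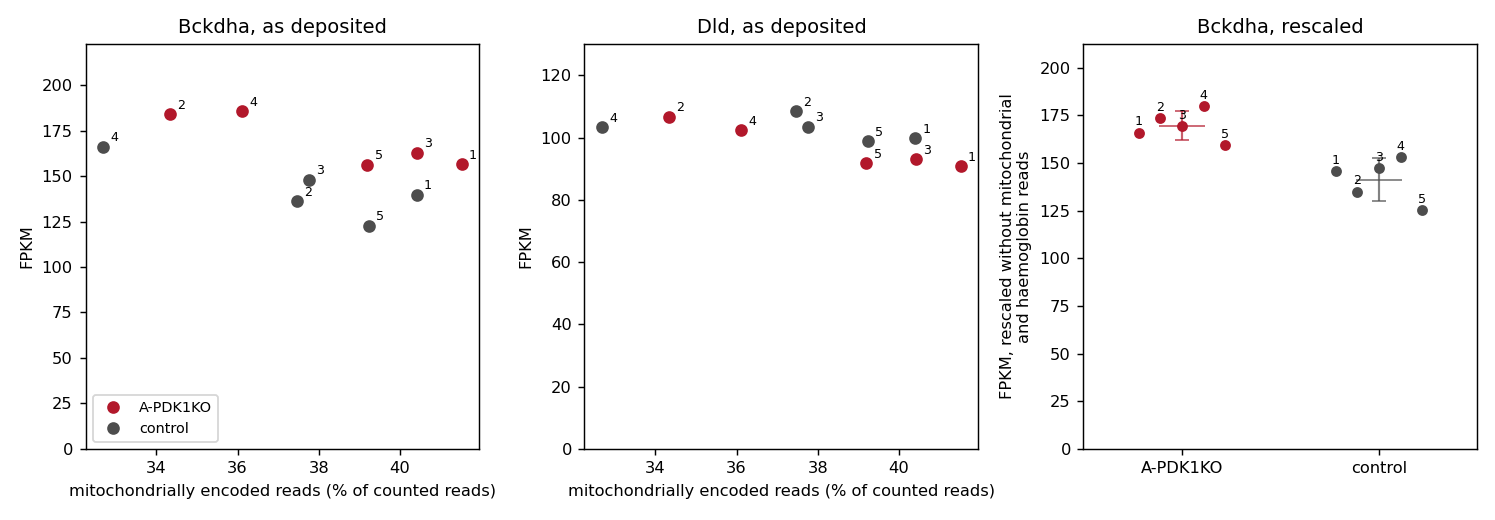
Left and middle, FPKM of Bckdha and Dld (vertical axes, from 0) against the percentage of counted reads that were mitochondrially encoded, 1 point per heart with its replicate number. Right, Bckdha after rescaling without mitochondrial and haemoglobin reads, with mean and SD; the A-PDK1KO hearts lie at 159 to 180 FPKM and the control hearts at 125 to 153 FPKM.

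Correlations between core genes over the hearts were mostly above 0 on the deposited scale. Of 21 pairwise correlations of deviations from the genotype means, 20 were above 0, with a median of 0.57. The highest was that of Bckdha with its kinase Bckdk (Pearson's r = 0.89, exact permutation within genotypes p = 0.0075, adjusted over 21 pairs p = 0.0802; Spearman's rho = 0.89, p = 0.00444, adjusted p = 0.0933; r = 0.84 without the 2 most extreme hearts). With mitochondrial and haemoglobin reads left out the median was -0.04, 10 of 21 were above 0, and Bckdha with Bckdk had r = 0.59 (exact p = 0.182, adjusted p = 0.891). All values of 1 heart share its library, and 0 of 21 pairs passed adjustment on either scale. E1 alpha and E1 beta, the closest protein partners, had r = 0.30 as deposited and -0.11 after rescaling (exact p = 0.479 and 0.784, adjusted p = 0.559 and 0.948).

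**Figure D5:**
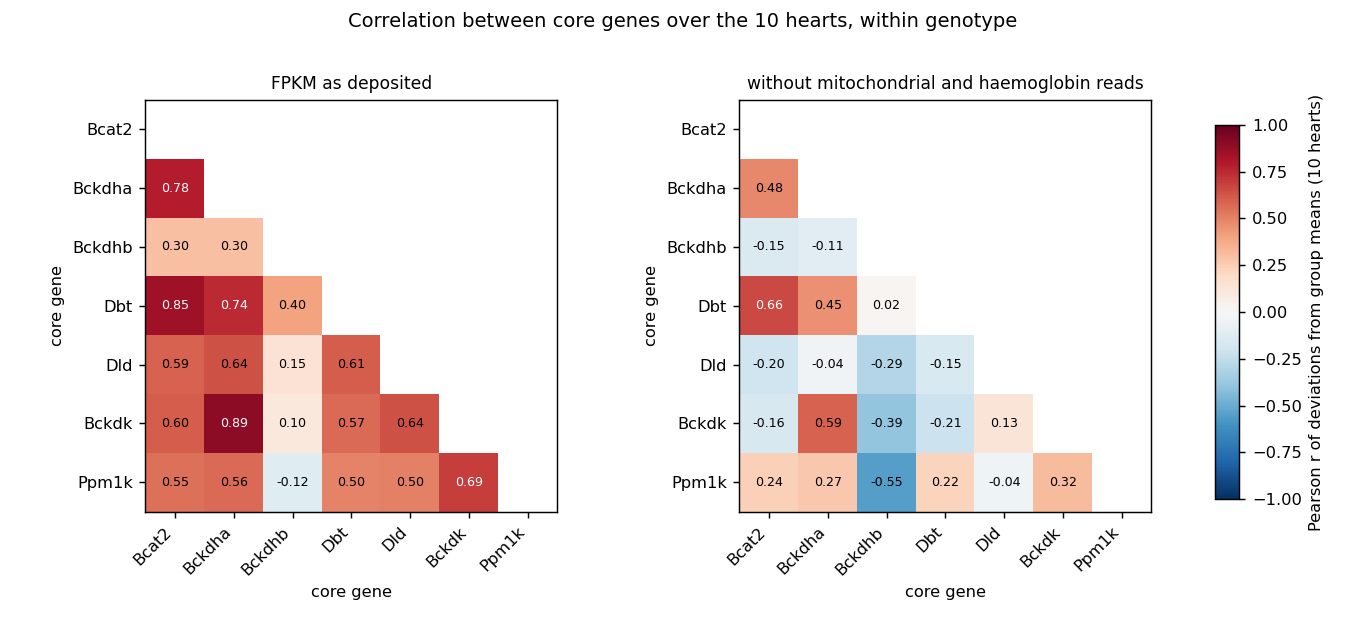
Pearson's r between core genes over the 10 hearts after each genotype's mean was removed, for FPKM as deposited (left) and rescaled without mitochondrial and haemoglobin reads (right); rows and columns are genes and the colour scale runs from -1 to 1. As deposited 20 of 21 cells are above 0, and after rescaling 10 are.

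Genes whose deviations from the genotype means followed each core gene most closely were sought among 4318 other genes of at least 5 FPKM. For Bckdha these were Dnajc5 (Pearson's r = 0.98 over 10 hearts), Idh3g, a subunit of the NAD-dependent isocitrate dehydrogenase of the citric acid cycle (0.98), and Sema4d (0.97). After rescaling their r with Bckdha was 0.98, 0.94 and 0.94. For Dbt they were Vasp, Ociad1 and Mmab, the last an enzyme of cobalamin handling, with r of 0.97, 0.96 and 0.96. Bcat2 was followed by Abcb8, Dele1 and Blcap (0.98, 0.96 and 0.96), and Bckdhb by Eef1d, Cog4 and Plbd2 (0.95, 0.94 and 0.90). For Bckdk the nearest were Hsp90b1, Msl3 and Acadl, the long-chain acyl-CoA dehydrogenase (0.98, 0.98 and 0.96), and after rescaling their r was 0.79, 0.86 and 0.70. Dld was followed by Tpm3, Ubr3 and Kpna3 (0.98, 0.97 and 0.96) and Ppm1k by Ubxn4, Calm2 and Ppp2r5a (0.97, 0.96 and 0.96). After rescaling, in the same order of genes, r was 0.79, 0.84 and 0.78 for Dld and 0.98, 0.92 and 0.94 for Ppm1k. It was 0.94, 0.90 and 0.93 for Dbt, 0.86, 0.89 and 0.87 for Bcat2, and 0.84, 0.89 and 0.87 for Bckdhb. Each is the top of 4318 correlations, and these values are a description.

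Other genes of the pathway were read from the same test. Of all tested genes 2.08% were called there and 15.6% had an unadjusted p under 0.05. In lists this short, a count of 0 called lies near that share. Among 18 enzymes that break down the BCKDH products, 0 were called, with 4 at an unadjusted p under 0.05 and a median log2 difference of 0.01. Hsd17b10, a dehydrogenase of isoleucine breakdown, was at 98.2 ± 6.03 FPKM in A-PDK1KO hearts and 112 ± 3.56 FPKM in control hearts, and Acat1, the thiolase that ends that branch, at 129 ± 16.9 FPKM in A-PDK1KO hearts and 104 ± 9.08 FPKM in control hearts. Of 8 tested genes of other complexes that use DLD, 0 were called and 0 had an unadjusted p under 0.05. Pdhb, the E1 beta subunit of pyruvate dehydrogenase, was at 119 ± 8.41 FPKM in A-PDK1KO hearts and 127 ± 4.71 FPKM in control hearts, and Ogdhl, an oxoglutarate dehydrogenase E1 relative, at 36.6 ± 5.28 FPKM in A-PDK1KO hearts and 31.5 ± 6.49 FPKM in control hearts. Of 6 genes of lipoate supply and attachment, the cofactor of DBT, 0 were called and 0 had an unadjusted p under 0.05. Oxsm, the ketoacyl synthase of mitochondrial fatty acid synthesis, was at 3.94 ± 0.602 FPKM in A-PDK1KO hearts and 3.61 ± 0.520 FPKM in control hearts, and Lipt1, a lipoyl transferase, at 3.12 ± 0.641 FPKM in A-PDK1KO hearts and 2.97 ± 0.440 FPKM in control hearts.

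Of 6 tested kinases and phosphatases of the pyruvate dehydrogenase complex, the nearest relatives of the BCKDH pair in role, 1 was called and 3 had an unadjusted p under 0.05, against 2.08% and 15.6% of all tested genes. Pdp1, a pyruvate dehydrogenase phosphatase, was higher, at 7.32 ± 0.654 FPKM in A-PDK1KO hearts and 5.21 ± 0.461 FPKM in control hearts (log2 difference 0.42 ± 0.08 SE, limma adjusted p = 0.0226, n = 5 each). Its groups did not overlap, unlike those of Ppm1k. Among 5 tested BCAA carrier genes 1 was called and 2 had an unadjusted p under 0.05. Slc43a2, a carrier of large neutral amino acids, was called as higher, at 6.11 ± 0.988 FPKM in A-PDK1KO hearts and 3.02 ± 0.476 FPKM in control hearts (log2 difference 0.82 ± 0.11 SE, limma adjusted p = 0.00956). Of 9 reported regulators and other linked genes 0 were called, with 0 at an unadjusted p under 0.05. Ppara, a fatty acid sensor, was at 5.74 ± 0.590 FPKM in A-PDK1KO hearts and 6.69 ± 0.854 FPKM in control hearts, and Mlxipl, the glucose-responsive factor ChREBP, at 1.41 ± 0.793 FPKM in A-PDK1KO hearts and 0.999 ± 0.180 FPKM in control hearts.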

How the data were processed

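Hearts of 10 mice were grouped by their labels, 5 A-PDK1KO and 5 control. Per the labels' protocols, paired-end reads went through FastQC 0.11.7. The submitters' processing notes list the build mm10 and the tools featureCounts 1.6.3, HISAT2 2.1.0 and Trimmomatic 0.38. The authors deposited FPKM values, 1 column per sample, for 11790 genes. The sources used here give neither annotation nor strand setting. A deposited column of other values, cluster numbers per gene, is described only.

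Whole reads were recovered with union exon lengths of GENCODE mouse release 21: 98.4% of values lay within 0.05 of a whole read. The 9987 genes averaging 1 FPKM or more were tested on log2(FPKM + 1) with limma 3.58.1 in R 4.3.3 (trend, two-sided), with Benjamini-Hochberg adjustment over all of them. Ratios and correlations were computed in Python 3.11.15, and sequence copies sought with BLAST+ 2.17.0: apart from antisense overlaps, the longest match of a core gene to another gene was 212 bases. The fitting script was first tested on simulated data. The members and lists were chosen with earlier results of these data known. Named genes are the core genes, Pdpk1, up to 4 called genes per list or else the 2 of smallest p, and the 3 most similar genes per core gene; genes named for the check of libraries or locus were added. Mice with the same number are not said to be paired. P-values judge each difference or correlation against the variation between these hearts. That variation includes differences between their libraries and in atrial tissue. No 2 hearts of a group matched within sampling noise.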

Additional observations from a re-analysis of the deposited data

Results flagged for a closer look

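In 30 groups of 5 hearts (7 genes and 8 ratios in each genotype), 2 held a heart far from the others; chance alone marks about 1 in 20. Dbt was at 20.1 FPKM in control replicate 4, against 14.0 to 15.1 FPKM in the other control hearts. The ratio Dld to Dbt was 5.15 in the same heart, against 6.73 to 7.16 in the others, and it shares the Dbt value. This heart had the lowest share of mitochondrial reads, 32.7%, and over the 10 hearts Dbt had r = -0.86 with that share (exact permutation p = 0.00972, adjusted p = 0.0258; Spearman's rho = -0.66, p = 0.0674, adjusted p = 0.118; r = -0.43 without this heart and A-PDK1KO replicate 2). The share enters the denominator of every FPKM, so part of that r is built in, and its bearing on the Dbt value was not tested. After rescaling without mitochondrial and haemoglobin reads Dbt was at 18.5 FPKM in this heart, against 14.58 to 15.02 FPKM in the other control hearts. Without it the log2 difference of Dbt was 0.22 (limma adjusted p = 0.263) and that of the ratio -0.32 (exact permutation adjusted p = 0.0635).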

How the results depend on the processing

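The core genes called numbered 0 in every setting but 2: rescaling without mitochondrial and haemoglobin reads (1, Bckdha, and again with control replicate 4 also left out) and the mitochondrial share as a covariate (1, Bckdha). Over all genes 208 were called as deposited, 314 after that rescaling and 392 with that covariate, 62 on the TPM scale, 412 with sample weights and 4 in the 6 hearts with Myl7 under 10 FPKM. Leaving out 1 heart gave 57 to 150: 106, 62 and 57 without A-PDK1KO replicates 1, 3 and 5, and 123, 77 and 96 without control replicates 1, 3 and 5. The log2 difference of Bckdha stayed between 0.19 and 0.30 with 1 heart left out. Those of Bcat2, Dbt, Ppm1k and Dld kept their sign in every setting run but not their size: with 1 heart left out Bcat2 ran from 0.08 to 0.18, Dbt from 0.06 to 0.22, Ppm1k from 0.09 to 0.27 and Dld from -0.12 to -0.06, and Dld was -0.00099 after quantile normalization. Those of the core genes nearest 0 changed sign: Bckdhb ran from -0.040 to 0.077 and Bckdk from -0.0046 to 0.058 with 1 heart left out, Bckdhb was -0.0051 after rescaling without control replicate 1, and Bckdk was -0.0016 in the 6 hearts with Myl7 under 10 FPKM. There the ratio Bckdha to Dbt was -0.0091 on the log2 scale, and Ppm1k to Bckdha ran from -0.14 to 0.022 with 1 heart left out; the cause was not tested. No ratio passed adjustment in any setting; the sign-flip test with a replicate block allows no p under 0.0625 and the 6 hearts with Myl7 under 10 FPKM none under 0.1, so neither could have passed. A replicate block in limma called 153 genes and 0 core genes (Bckdha adjusted p = 0.106). Deviations of same-numbered hearts correlated between -0.12 and 0.09, and none was closest to its own number. Such correlations show no sign of pairing by number but cannot exclude it.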

Other observations

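The authors' deposited table also gives each gene a cluster number from 0 to 15, by a method not given in the sources used here. In the authors' deposited table Bckdk, Dbt and Ppm1k carry the number 0, shared by 1937 genes or 16.4% of the table. Bcat2 carries 3, Bckdha 4, Bckdhb 7 and Dld 11 in the authors' deposited table, so the E1 partners and the E3 subunit fall in different groups.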
